A study of Bos taurus with 179 samples.

Results

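ABAT (ENSBTAG00000004038) and AGMAT (ENSBTAG00000002478) are a pair of mitochondrial enzyme genes that were followed here through the growth of the bovine oocyte. They were found by the gene IDs that the study's own gene tables pair with these symbols, and they are 2 of the 21218 gene IDs counted. Both levels rose with oocyte diameter: the mean level went up at each step of the 8 size groups when the means of both library replicates were averaged, and the largest oocytes were 4.92-fold higher than the smallest for ABAT and 4.49-fold higher for AGMAT. The genes were picked out with results of these data known and it is not recorded which values led to the choice, so their levels over size are a description and carry no test.

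ABAT encodes GABA transaminase, which passes the amino group of γ-aminobutyric acid (GABA) to 2-oxoglutarate and leaves succinic semialdehyde. Together with ALDH5A1, which oxidises that product to succinate, it forms the GABA shunt, a side route into the citric acid cycle, and it also acts on β-alanine. AGMAT is annotated as agmatinase, a ureohydrolase that splits agmatine, a decarboxylation product of arginine, into putrescine and urea. Putrescine is the first of the polyamines, and it can be turned into GABA through 4-aminobutyraldehyde, so that the reactions of both enzymes lie on connected routes.

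Single oocytes of secondary to antral follicles had been taken from abattoir ovaries of Bos taurus, stripped of their surrounding cells and measured, and polyadenylated mRNA of each was amplified and sequenced. No treatment or genotype separated the groups, and the donor animals are not named, so oocytes of a group may share an animal. The oocytes of the study's analysed set fell into 8 groups: < 60 μm (n = 21), 60–69 μm (n = 25), 70–79 μm (n = 23), 80–89 μm (n = 24), 90–99 μm (n = 21), 100–109 μm (n = 18), 110–119 μm (n = 19) and > 120 μm (n = 14). Libraries came as replicate 1, with 97 oocytes read at 150 bp, and replicate 2, with 68 other oocytes read at 75 bp, and the smallest set was that of replicate 1 at < 60 μm, with 3 oocytes.

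Totals lay between 277126 and 8038061 counts an oocyte (median 1763520). Levels are given as CPM, counts scaled to a library size that is the same for every oocyte, which is a share of the mRNA counted in an oocyte and not a number of molecules. They are not divided by gene length, so ABAT and AGMAT are compared with themselves only. The oocyte label was checked against markers. Of 14 oocyte markers 4 could be paired with an ID (BMP15, BTG4, BCAR4 and CPEB1), and their summed level was between 3730 and 16110 CPM, with a median of 4583 CPM at < 60 μm and 8611 CPM at > 120 μm. The 5 paired markers of granulosa and theca cells, the cells around the oocyte, summed to a median of 7.03 CPM at < 60 μm and 0.792 CPM at > 120 μm and to at most 21.7 CPM in any oocyte, with 4 of the 5 at 0 in over 50% of the oocytes. The 12 paired markers of stroma, vessels and blood summed to between 6.57 and 323.7 CPM, and 7 of the 12 were at 0 in over 50% of the oocytes. Their median was 60.7 CPM at < 60 μm, between 108.1 and 152.05 CPM in the groups from 60 to 109 μm, 67.4 CPM at 110–119 μm and 83.6 CPM at > 120 μm. Most of this level was CSF1R. With counts summed by group and replicate, it had 156 and 56.1 CPM at 100–109 μm in replicates 1 and 2. At 110–119 μm it had 38.1 and 30.6 CPM. No other tested marker of the list was above 23.2 CPM in any such sum.

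ABAT was counted in 164 oocytes, all but 1 (99.4%, exact 95% binomial interval 96.7 to 99.98%, covering counting error only), with a median of 59 counts. AGMAT was counted in every analysed oocyte (interval 97.8 to 100%), with a median of 53 counts. With each oocyte thinned to 250000 counts, ABAT was still found in 160 oocytes (96.97%) and AGMAT in 159 (96.4%). At that equal depth the oocytes without a count were mostly small: 4 of the 6 for AGMAT were < 60 μm and 4 of the 5 for ABAT were < 70 μm. Transcripts of both genes were detectable from the smallest group on.

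In the group < 60 μm, ABAT had a lowest level of 0 CPM, a median of 18.7 CPM and a highest level of 59.5 CPM. At 60–69 μm it ran from 0.275 through a median of 18.3 to 107 CPM, and at 70–79 μm from 11.3 through 24.1 to 110 CPM. The ranges of these small groups overlapped almost wholly. Their pooled medians mix replicates of unequal level in unequal shares, with 18 of 21 oocytes from replicate 2 at < 60 μm and 8 of 25 at 60–69 μm. By replicate, the ABAT medians of the 3 groups were 6.11, 18.3 and 22.7 CPM in replicate 1 and 21.2, 23.999 and 26.2 CPM in replicate 2. At 80–89 μm ABAT ran from 16.4 through 34.1 to 67.8 CPM, and at 90–99 μm from 20.3 through 49.9 to 181 CPM. From that size on the pooled median stayed at 49.9 CPM or above. At 100–109 μm ABAT ran from 23.3 through 55.2 to 134 CPM, at 110–119 μm from 28.8 through 52.8 to 238 CPM, and at > 120 μm from 27.9 through 76.4 to 135 CPM.

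In oocytes < 60 μm the lowest AGMAT level was 1.93 CPM, the median 9.9998 CPM and the highest 31.7 CPM. At 60–69 μm it ran from 7.76 through a median of 20.1 to 48.2 CPM, and at 70–79 μm from 9.59 through 33.4 to 100.005 CPM. The pooled median therefore rose at both of these early steps, although the ranges overlapped and the pooled groups mix the replicates unequally, as for ABAT. By replicate, the AGMAT medians of the 3 groups were 12.4, 24.1 and 38.3 CPM in replicate 1. In replicate 2 they were 9.47, 12.8 and 20.5 CPM. At 80–89 μm AGMAT ran from 8.89 through 37.9 to 123 CPM and at 90–99 μm from 11.6 through 41.3 to 167 CPM. At 100–109 μm it ran from 19.2 through 66.6 to 116 CPM, at 110–119 μm from 25.5 through 53.9 to 152.5 CPM, and at > 120 μm from 22.1 through 86.5 to 184 CPM. The highest pooled medians of both genes belonged to the group > 120 μm, as did the highest medians of replicate 1. In replicate 2 the highest median of ABAT was at 110–119 μm (112 CPM, against 101 CPM at > 120 μm) and that of AGMAT at 100–109 μm (46.6 CPM, against 42.7 CPM).

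**Figure D1:**
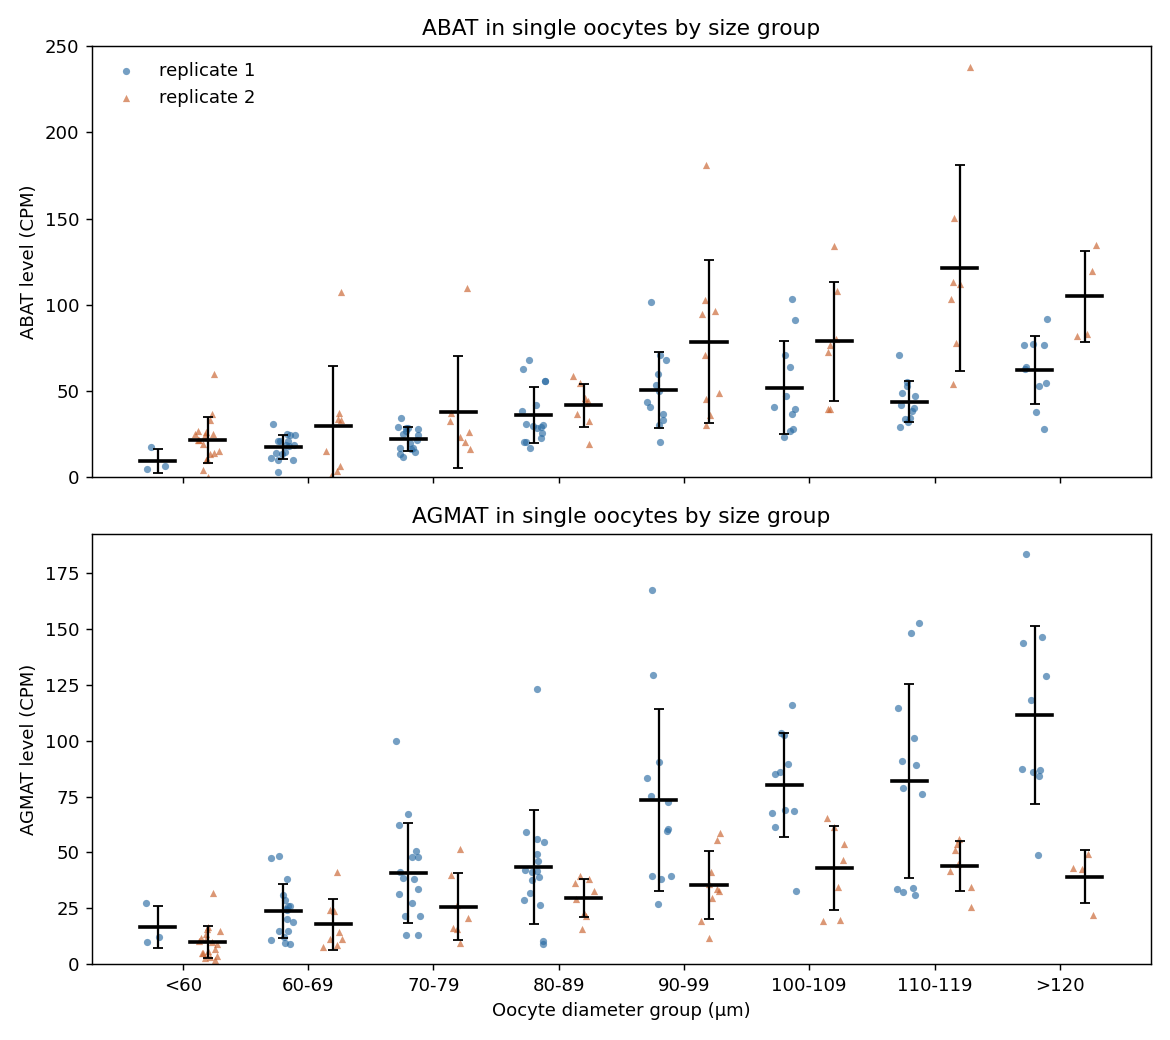
Level of ABAT (top) and AGMAT (bottom) in CPM on a linear axis, by diameter group in μm, with 1 point per oocyte (circles replicate 1, triangles replicate 2) and the mean ± SD of each set as a thick line with a bar that is cut off at 0. ABAT was higher in replicate 2 and AGMAT in replicate 1 in all 8 groups, and both had a higher mean at > 120 μm than at < 60 μm in both replicates.

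Averaged over both replicates so that each counted equally, the mean ABAT level was 15.2 CPM at < 60 μm, 23.4 CPM at 60–69 μm, 29.9 CPM at 70–79 μm and 38.7 CPM at 80–89 μm. It was 64.4 CPM at 90–99 μm, 65.1 CPM at 100–109 μm, 82.3 CPM at 110–119 μm and 83.3 CPM at > 120 μm. The same mean for AGMAT was 13.2, 20.8, 33.4 and 36.5 CPM in the 4 groups below 90 μm, and 54.4, 61.6, 62.9 and 75.3 CPM in the 4 groups from 90 μm up. For both genes the order of these averages was the order of the diameters. It was not so within each replicate: the mean of ABAT fell back from 51.8 to 43.4 CPM at 110–119 μm in replicate 1 and from 121 to 104.7 CPM at > 120 μm in replicate 2, and that of AGMAT from 43.9 to 39.2 CPM at > 120 μm in replicate 2. No step between neighbouring groups was larger than the SD between oocytes, averaged over the replicates, of both groups. The widest step of ABAT was that from 80–89 to 90–99 μm, 25.7 CPM, which exceeded the SD of the former group (14.3 CPM) but not that of the latter (34.8 CPM). The AGMAT steps from 60–69 to 70–79 μm (12.5 CPM, with SDs of 11.8 and 18.6 CPM) and from 80–89 to 90–99 μm (17.9 CPM, with SDs of 17.2 and 28.02 CPM) likewise exceeded the SD of the smaller group alone. The coefficient of variation within a group and replicate had a median of 0.439 for ABAT and 0.512 for AGMAT over the 15 sets of at least 4 oocytes.

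Level and library replicate moved in opposite ways for the pair. The mean ABAT level was higher in replicate 2 in 8 of 8 size groups, and that of AGMAT was higher in replicate 1 in 8 of 8. At > 120 μm, ABAT averaged 62.0 ± 19.5 CPM (SD, n = 10) in replicate 1 and 104.7 ± 26.7 CPM (n = 4) in replicate 2, while AGMAT averaged 111 ± 39.9 CPM and 39.2 ± 11.8 CPM in the same oocytes. In the fit over all genes described next, replicate 2 differed from replicate 1 by 0.91 (SE 0.17) on the log2 scale for ABAT and by -0.77 (SE 0.15) for AGMAT, against a median of -0.16 over 14087 genes. Shifts of that size were common, since 44.7% of all genes lay at least as far from 0 as ABAT and 52.4% at least as far as AGMAT. Replicate, library batch, read length and the oocytes sampled cannot be told apart. Each log2 fold change of the pair between size groups is given by replicate as well.

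The counts of each group and replicate were summed into 16 sums, which were compared with edgeR under a model of size group and replicate, and 14087 genes, ABAT and AGMAT among them, passed the filter on low counts. Over growth as a whole, the ABAT sum rose from 10.7 CPM at < 60 μm to 44.5 CPM at > 120 μm in replicate 1 and from 19.3 to 110 CPM in replicate 2. The AGMAT sum rose from 18.01 to 92.3 CPM in replicate 1 and from 10.4 to 39.6 CPM in replicate 2. The log2 fold change of > 120 μm against < 60 μm was 2.30 (SE 0.34) for ABAT, with 2.06 in replicate 1 alone and 2.51 in replicate 2 alone. It was 2.17 (SE 0.32) for AGMAT, with 2.36 and 1.93. The median over all genes was -0.12.

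Both genes were higher at > 120 μm than at < 60 μm in both replicates, and the rise was made of several steps. From < 60 to 60–69 μm the log2 fold change was 0.56 (SE 0.33) for ABAT, with 0.54 in replicate 1 and 0.57 in replicate 2, and 0.54 (SE 0.31) for AGMAT, with 0.24 and 0.80. In replicate 2 at 60–69 μm, 1 oocyte with 107 CPM gave 222 of the 604 ABAT counts. Without it the mean of that set was 18.3 instead of 29.4 CPM, against 21.2 CPM at < 60 μm, and the log2 fold change of the sums in replicate 2 was 0.091 instead of 0.57. From < 70 μm, which joins the first pair of groups, to 70–79 μm it was 0.75 (SE 0.28) and 1.05 (SE 0.26). For ABAT the value was 0.79 in replicate 1 and 0.71 in replicate 2, and in the latter 0.25 without the oocyte at 70–79 μm that gave 230 of 623 counts. The step into 70–79 μm had the highest value of AGMAT's 7 successive comparisons, with 1.32 in replicate 1 alone and 0.78 in replicate 2 alone. From 70–79 to 80–99 μm the log2 fold change was 0.65 (SE 0.29) for ABAT, with 0.83 and 0.42 by replicate, and 0.30 (SE 0.26) for AGMAT, with 0.080 and 0.51. Within the latter range, from 80–89 to 90–99 μm, it was 0.72 (SE 0.33) for ABAT, with 0.51 and 1.02, and 0.56 (SE 0.30) for AGMAT, with 0.93 and 0.22. With all oocytes kept, the values of these 4 steps lay above 0 in both replicates, although they differed between the replicates, most for AGMAT from 80–89 to 90–99 μm. Whether the steps of the genes differ from each other was not tested.

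From 80–99 to 100–109 μm the log2 fold change was 0.27 (SE 0.28) for ABAT, with 0.030 in replicate 1 and 0.57 in replicate 2, and 0.49 (SE 0.26) for AGMAT, with 0.68 and 0.32. From 100–109 to 110–119 μm ABAT gave 0.41 (SE 0.33), made of -0.062 in replicate 1 and 0.76 in replicate 2, while AGMAT gave -0.032 (SE 0.30), made of -0.19 and 0.13. From 110–119 to > 120 μm the values were -0.055 (SE 0.33) for ABAT, with 0.21 and -0.23 by replicate, and 0.088 (SE 0.30) for AGMAT, with 0.35 and -0.22. On both steps past 100–109 μm the replicates had opposite signs for both genes. In the sum of replicate 1 at 100–109 μm, 1 oocyte held 52.9% of the counts. Without that oocyte the ABAT steps into and out of the group were 0.43 and 0.29, and those of AGMAT were 0.45 and 0.063, so that the latter changed sign near 0.

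**Figure D2:**
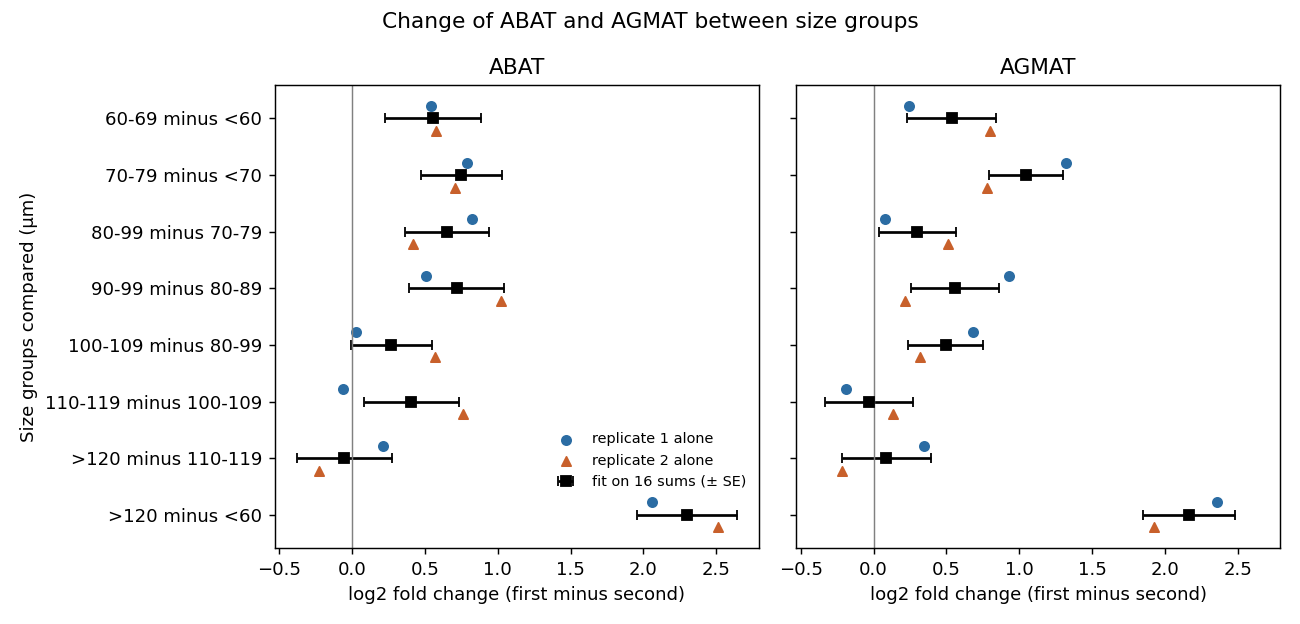
Log2 fold changes of ABAT (left) and AGMAT (right), first group minus second group in μm, from the fit on 16 sums (squares with ± SE) and within each replicate alone (circles and triangles). The values of the 4 steps up to 99 μm lie above 0 in both replicates with all oocytes kept, those of the last 2 steps lie on both sides of 0, and the change over the whole of growth is 2.30 for ABAT and 2.17 for AGMAT.

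The ends of growth were also compared oocyte by oocyte within each replicate. In replicate 1 the highest ABAT level at < 60 μm was 17.3 CPM and the lowest at > 120 μm was 27.9 CPM, and in replicate 2 these levels were 59.5 and 81.8 CPM, so the ABAT ranges did not overlap in either replicate. For AGMAT the ranges did not overlap in replicate 1 (27.5 against 48.7 CPM) but overlapped in replicate 2 (31.7 against 22.1 CPM). Over all genes tested, 5.22% were higher with no overlap in replicate 1, with 3 against 10 oocytes, and 1.43% in replicate 2, with 18 against 4. The genes were chosen on these data, so nothing is read from the difference.

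Over all analysed oocytes, with the mean of each replicate removed, log2(CPM + 1) went with diameter at a Pearson r of 0.685 (Spearman rho 0.767) for ABAT and 0.717 (0.750) for AGMAT. Within replicate 1 r was 0.728 and 0.725, and within replicate 2 it was 0.673 and 0.708. With the 2 oocytes of most extreme diameter left out r was 0.676 and 0.721. Inside a size group and replicate little of the relation was left, with r of 0.0786 for ABAT and 0.144 for AGMAT, over the narrow span of diameters that a group has. The log10 of the total count had an r of -0.253 with ABAT and -0.205 with AGMAT, and of -0.0682 and -0.0234 inside group and replicate. These correlations describe oocytes that share groups, libraries and possibly animals, and carry no p.

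The markers were also set beside the pair. The summed granulosa and theca markers had an r of -0.400 with ABAT and -0.402 with AGMAT over all oocytes, and of -0.0315 and 0.0172 inside group and replicate. For the oocyte markers r was 0.520 and 0.587 over all oocytes, and 0.221 and 0.274 inside group and replicate. For the stroma, vessel and blood markers, whose sum was mostly CSF1R, it was -0.147 and -0.0689 over all oocytes. Of the 14 markers that passed the filter on low counts, edgeR called 4 at > 120 against < 60 μm, where 19.2% of all 14087 genes were called. BMP15 was higher by a log2 fold change of 1.29 (SE 0.40, edgeR adjusted p = 0.0300) and BCAR4 by 1.21 (SE 0.26, edgeR adjusted p = 0.00385). HSD17B1, of granulosa cells, fell by 3.02 on the log2 scale (SE 0.74, edgeR adjusted p = 0.00852). Of the other tested granulosa and theca markers, FSHR gave 0.16 (SE 1.61) and GATA4 -1.47 (SE 1.44), neither of them called. COL1A2, a stromal collagen gene, rose from 0.147 and 1.67 CPM to 9.38 and 8.39 CPM in replicates 1 and 2 (log2 fold change 3.20, SE 0.73, edgeR adjusted p = 0.00550). The other stromal genes COL1A1, COL3A1 and DCN had 24, 19 and 47 counts over all analysed oocytes, too few to be tested, and edgeR called none of the other 6 tested markers of stroma, vessels and blood (adjusted p 0.168 to 0.788). Of the 7 tested, COL1A2 included, 5 had a log2 fold change above 0 and 2 below. HBA gave 1.46 (SE 0.77), CLDN5 1.32 (SE 1.44), CD68 1.21 (SE 1.40) and CNN1 0.25 (SE 0.54), while ACTA2 gave -1.003 (SE 0.84) and CSF1R -0.67 (SE 0.33). On the step from 100–109 to 110–119 μm, where 3.88% of all genes were called, edgeR called BCAR4 higher (log2 fold change 1.52, SE 0.26, edgeR adjusted p = 0.0283). It called CSF1R lower on that step (log2 fold change -1.39, SE 0.34, edgeR adjusted p = 0.0396). The part of the markers in the levels of ABAT and AGMAT was not tested.

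ABAT and AGMAT also went together from oocyte to oocyte. With replicate means removed r was 0.675 (rho 0.718), and with the mean of each size group and replicate removed it was 0.370 (rho 0.384). The latter value was made of 0.544 over the 97 oocytes of replicate 1 and 0.263 over the 68 oocytes of replicate 2. In replicate 1 all 7 groups of at least 7 oocytes had a positive r, between 0.254 and 0.756. In replicate 2 it was positive in 4 of 7 groups and ran from -0.523 to 0.545, with 7 to 18 oocytes a group. Both values of an oocyte come from 1 library and share its total and quality.

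**Figure D3:**
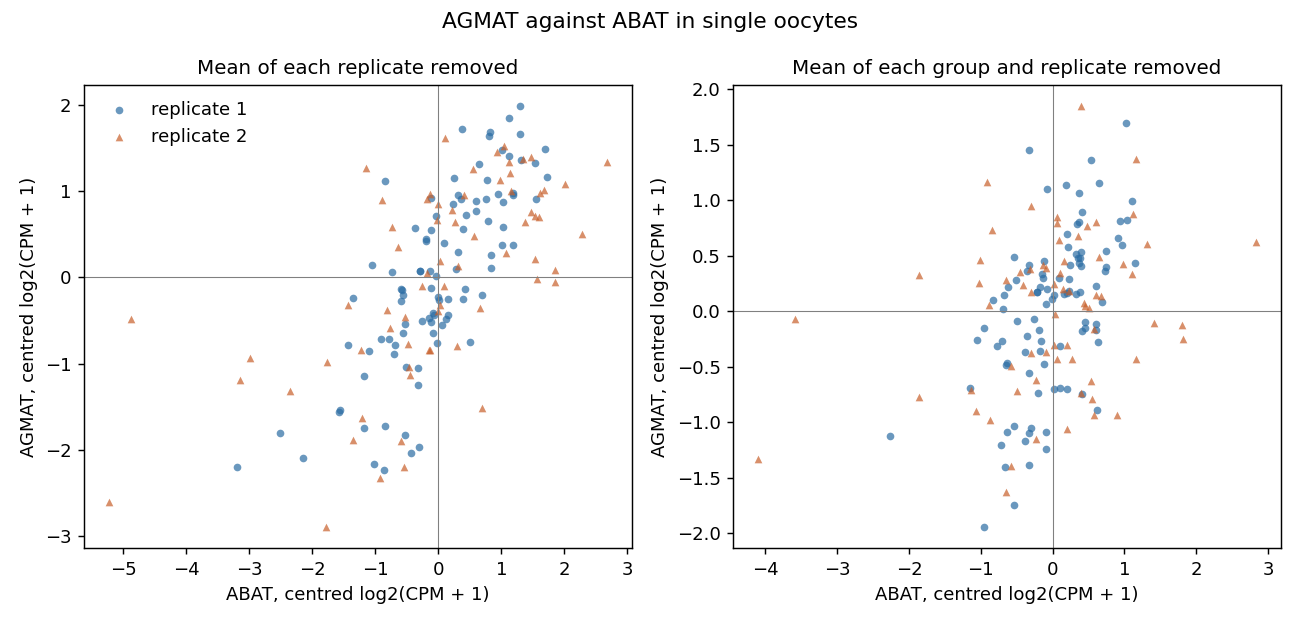
AGMAT against ABAT in the analysed oocytes as log2(CPM + 1), with the mean of each replicate removed (left) and with the mean of each size group and replicate removed (right), circles for replicate 1 and triangles for replicate 2. The points follow a rising band on the left (r = 0.675) and a looser one on the right (r = 0.370), where replicate 1 follows it more closely (0.544) than replicate 2 (0.263).

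The genes on the routes around the pair were taken from 5 lists of 100 genes in all, 34 of which could be paired with an ID and 33 of which were tested. The missing 1, DPYS, had 77 counts in all. At > 120 μm against < 60 μm, 3 of the 33 were upregulated and 5 were downregulated at an adjusted p below 0.05 (edgeR quasi-likelihood test, Benjamini-Hochberg over all genes), beside 9.36% upregulated and 9.8% downregulated, 19.2% in all, among the 14087 genes. The median log2 fold change of the 33 was 0.20, the same with GABRR1 and GABBR1, which had 0 counts at 1 end, put at their bound, against -0.12 over all genes. A share of 8 in 33 is near the background and says nothing particular of the lists. In the 7 successive comparisons edgeR called none of the 33, with 0 to 8 of them at an unadjusted p below 0.05. The most were 7 and 8, on the steps into 100–109 and 110–119 μm, where 16.1% and 26% of all genes had such a p. DESeq2 called 2 of the 33 on each of those steps, beside 2.77% and 11.4% of all genes, and 0 on the others. Of all genes, edgeR called 0.0142% on the step into 60–69 μm and 0.135% on the step into 70–79 μm. It called 0% on the steps into 80–99 and 90–99 μm, with 780 and 469 genes at an unadjusted p below 0.05 and 19 and 0 calls by DESeq2. The later steps had 0.497%, 3.88% and 0.0071% of genes called, in the order of size.

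Among the enzymes that make and break down GABA (4 of 15 paired), edgeR called none higher and 1 lower. ALDH5A1, which takes up the product of ABAT, gave sums of 19.8 and 13.6 CPM at < 60 μm and 28.6 and 21.7 CPM at > 120 μm in replicates 1 and 2, a log2 fold change of 0.60 (SE 0.37, edgeR adjusted p = 0.263), and it was called in single oocytes. AKR7A2, which reduces succinic semialdehyde to γ-hydroxybutyrate, gave 0.63 (SE 0.30, edgeR adjusted p = 0.145). ADHFE1, which oxidises γ-hydroxybutyrate back to succinic semialdehyde, gave 1.08 (SE 0.39, edgeR adjusted p = 0.0580), from 16.1 and 13.4 CPM to 33.98 and 27.7 CPM, and it was called higher by DESeq2, with no filter on low counts, in single oocytes, in all 179 oocytes and after thinning. ALDH9A1, which makes GABA from 4-aminobutyraldehyde, fell by 2.63 on the log2 scale (SE 0.52, edgeR adjusted p = 0.00180), from 56.2 and 31.4 CPM to 15.3 and 1.86 CPM. In each replicate ALDH9A1 had its highest sum at < 60 μm, where ABAT had its lowest. A relation between these genes was not tested. Of the receptor subunits (3 of 21 paired), GABRP, the π subunit of GABA-A receptors, was called higher (edgeR adjusted p = 0.0369), on 0 and 1 counts at < 60 μm and 18 and 6 counts at > 120 μm in replicates 1 and 2.

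Of the genes of arginine, agmatine and polyamine metabolism (13 of 40 paired), 1 was upregulated and 2 were downregulated. ARG2, the mitochondrial arginase, which takes arginine to ornithine and urea, rose from 52.8 and 31.6 CPM to 144.005 and 61.3 CPM, a log2 fold change of 1.197 (SE 0.27, edgeR adjusted p = 0.00491). ALDH18A1, which makes pyrroline-5-carboxylate from glutamate for proline and ornithine, fell by 2.85 on the log2 scale (SE 0.46, edgeR adjusted p = 0.000368), from 126 and 59.2 CPM to 14.8 and 10.02 CPM. GATM, which moves the amidino group of arginine to glycine in creatine synthesis, fell by 4.10 on the log2 scale (SE 0.82, edgeR adjusted p = 0.00217). Its sums went from 5.07 and 11.1 CPM (69 and 524 counts) to 0.706 and 0 CPM (18 and 0 counts). In replicate 1 alone the log2 fold change was -2.84, and replicate 2 alone gave no value because of the 0. The antizyme inhibitors, which spare ornithine decarboxylase, gave -0.92 (SE 0.36, edgeR adjusted p = 0.0791) for AZIN1 and 1.06 (SE 0.41, edgeR adjusted p = 0.0740) for AZIN2. AZIN1 was called with no filter on low counts, in single oocytes and after thinning, AZIN2 by DESeq2 and in single oocytes, and both without the deepest oocyte of replicate 1 at 100–109 μm. ATP13A3, a polyamine transporter, gave 0.056 (SE 0.39, edgeR adjusted p = 0.938), with -0.73 in replicate 1 and 0.88 in replicate 2.

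Of the genes that break down branched-chain amino acids and β-alanine (10 of 20 paired, 9 tested), 1 rose and 1 fell. BCAT2, the mitochondrial branched-chain aminotransferase, rose from 25 and 22 counts to 839 and 13 counts, or from 1.84 and 0.466 CPM to 32.9 and 3.03 CPM (log2 fold change 3.67, SE 0.90, edgeR adjusted p = 0.00862). ALDH6A1, which handles the semialdehydes from valine and β-alanine, fell by 2.14 on the log2 scale (SE 0.52, edgeR adjusted p = 0.00836), from 9.995 and 13.98 CPM to 2.55 and 3.03 CPM. Of the 4 other mitochondrial aldehyde dehydrogenases, all of them paired, ALDH1B1 fell by 1.39 on the log2 scale (SE 0.46, edgeR adjusted p = 0.0392). ALDH9A1, ALDH18A1 and GATM stayed called with each of the 16 sums left out in turn. ARG2 and BCAT2 lost the call without replicate 1 at < 60 μm, a sum of 3 oocytes in which 1 held 46.6% of the counts, or at > 120 μm. ALDH6A1 lost it without replicate 2 at < 60 μm or replicate 1 at > 120 μm, GABRP without 8 of the 16 sums and ALDH1B1 without 13. ALDH1B1 also lost it with no filter on low counts and after thinning, and GABRP was too low to be tested after thinning or in single oocytes. None of the 8 was called by edgeR without the replicate in the model (7 of the 33 at an unadjusted p below 0.05), where 0.575% of all genes were called and 15% had such a p. DESeq2 with the replicate called 11, beside 19% of all 17969 genes fitted.

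**Figure D4:**
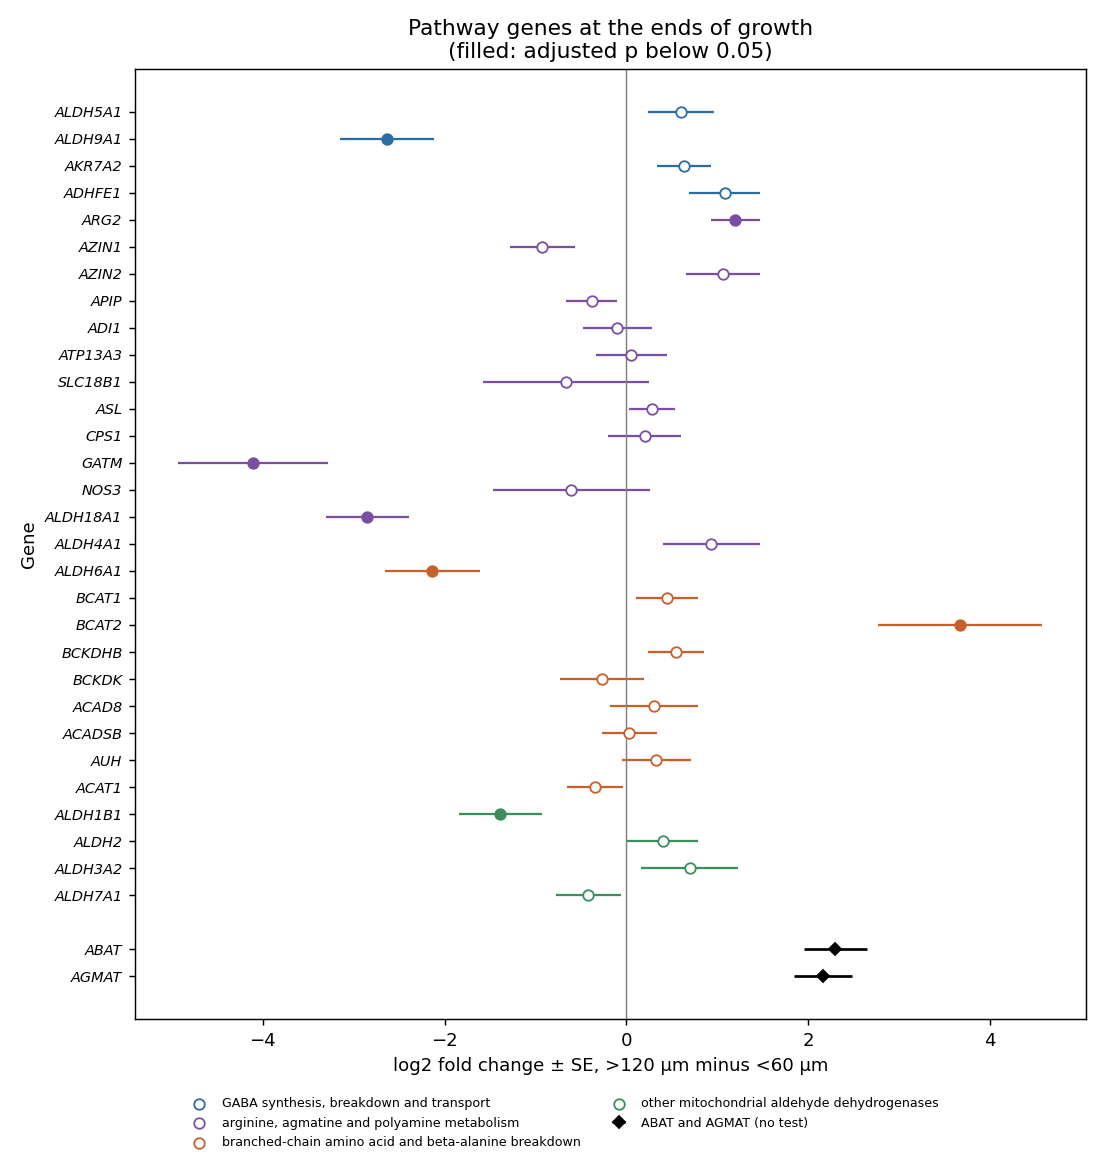
Log2 fold change ± SE of > 120 μm minus < 60 μm oocytes for 30 pathway genes, coloured by list and filled where the adjusted p was below 0.05, with ABAT and AGMAT as diamonds with no test. GABRP, GABRR1 and GABBR1 are left out because an end group had at most 3 counts. ALDH9A1, GATM, ALDH18A1, ALDH6A1 and ALDH1B1 lie to the left of 0, and ARG2 and BCAT2 lie to the right.

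The likeness of other genes to the pair was measured as Pearson's r of log2 CPM over the 16 sums, with replicate means removed. ABAT and AGMAT had an r of 0.902 with each other, and 83 of the 14087 genes lay closer to ABAT than AGMAT did, as did 83 to AGMAT. Among the 2936 genes with a symbol, those most like ABAT were CST6, a cysteine protease inhibitor (0.961), ATP12A, a subunit of a proton and potassium pump (0.956), and AKR1A1, an aldehyde reductase (0.939). Those most like AGMAT were CASP6, a caspase (0.953), again ATP12A (0.953), and ARID1A, a subunit of a chromatin remodelling complex (0.950). Least like ABAT were CIB2 (-0.932), ANP32A (-0.932) and CPO (-0.931), and least like AGMAT were TMEM256 (-0.943), CREG2 (-0.924) and CCDC102B (-0.911). Over single oocytes these likenesses were weaker, for example 0.512 for ABAT with CST6 and 0.677 for AGMAT with CASP6. The choice among so many genes makes these values high, and they are a description.

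In the RefSeq annotation of a later assembly (ARS-UCD2.0), the ABAT locus overlaps 7 other genes, among them TMEM186, PMM2, CARHSP1 and USP7, and the AGMAT locus overlaps DNAJC16. How reads on overlapping genes and on each strand were counted is not stated, so reads from such genes cannot be told apart from those of the pair. Of the overlapping genes only CARHSP1 could be paired with an ID. It gave a log2 fold change of 0.45 (SE 0.32) at > 120 μm against < 60 μm and an r of 0.315 with ABAT over the 16 sums.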

How the data were processed

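The authors trimmed reads with Trim Galore (0.6.6), aligned them with HISAT2 to ARS-UCD1.2 and deposited raw counts per gene from SeqMonk, with no normalization. The members, gene lists and tests were chosen with earlier results of these data known. The 165 oocytes listed by the study were used, and 14 others only where stated. Counts of an ID on several lines were summed; ABAT and AGMAT stand on 1 line each.

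Counts were summed by size group and replicate (16 sums), filtered with filterByExpr of edgeR 4.0.16 (minimum count 10, minimum total 15), TMM-normalized and fitted with group and replicate, and genes were called at an adjusted p of 0.05. SE was the log2 fold change over the square root of F. The p-values measure how far the differences between size groups disagreed between the library replicates. They measure neither the shift between the replicates, which the model takes up, nor the spread between animals. Replicates were kept as a block because the study found and corrected a batch effect between them. The sums of a replicate also deviated together (r 0.398 to 0.694 over 28 pairs of groups). CPM per oocyte used TMM library sizes and log2 values a pseudocount of 1. The fit was tested on simulated data with 200 changed genes.

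Named genes were ABAT, AGMAT, the called list genes, ALDH5A1, ALDH9A1, AKR7A2, AZIN1, AZIN2, ARG2, ATP13A3, and the 3 most and 3 least like each member. ADHFE1, GABRR1, GABBR1, DPYS, the markers and the overlapping genes were named after their values were seen. Symbols were available here for 3608 IDs. Alternatives were no replicate block, RLE, DESeq2 1.42.0, no filter, single oocytes, all 179 oocytes, thinning, other scales, each sum left out and each replicate alone. Leaving out the deepest oocyte of a sum, or the highest ABAT oocyte of a set, was added after the data were seen. R 4.3.3 and Python 3.11.15 were used.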

Additional observations from a re-analysis of the deposited data

Results flagged for a closer look

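ABAT had 3 sets in which the highest oocyte stood apart from the rest by Dixon's criterion, all of them in replicate 2, which also gave 7 of the 8 sets searched per gene. At 60–69 μm the highest oocyte had 107 CPM and the next 37.0 CPM (n = 8), at 70–79 μm the values were 110 and 37.2 CPM (n = 7), and at 90–99 μm they were 181 and 103 CPM (n = 9). The search covered 16 sets of 4 to 10 oocytes over both genes, and sets of other sizes, 7 of the 8 of replicate 1 and 1 of the 8 of replicate 2, were not searched. Chance alone marks about 1 in 20 where values are normally spread. That was not checked for the CPM of single oocytes, so the rate may differ here. AGMAT had no such oocyte in the sets searched.

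Of the 14 oocytes outside the analysed set, ABAT had more than 3 counts in 7 and AGMAT in 7. Among the 8 of these with enough reads and genes for the study's stated limits, levels relative to the raw total ran from 0 to 93.5 CPM for ABAT and from 0 to 88.2 CPM for AGMAT. A pair of them, both < 60 μm, had 0 counts of AGMAT in totals of 4933709 and 2487675 counts, with 125 and 6 counts of ABAT, whereas every analysed oocyte had at least 4 counts of AGMAT.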

How the results depend on the processing

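Limits: 1 sum per group and replicate, no named animals, CPM as a level relative to the counted mRNA, and few symbols. With RLE normalization no pathway call changed, and the AGMAT step from 100–109 to 110–119 μm went from -0.032 to 0.0074 on the log2 scale. The no replicate block fit gave 0 called pathway genes at > 120 against < 60 μm, beside 8 with the block, and 81 instead of 2700 calls over all genes. In each of the 7 successive steps it called 0 of all genes (101 to 647 at an unadjusted p below 0.05), where the block had given 547 calls on the step into 110–119 μm and 70 on that into 100–109 μm; no log2 fold change of the pair changed sign. The cause was not tested for this or the values that follow. At > 120 against < 60 μm single oocytes as units gave 14 called pathway genes, with 40.5% of all genes called, and a log2 fold change of 2.53 for AGMAT. Called pathway genes went from 0 to 1 in single oocytes at 70–79 and at 80–99 μm against the group before, to 2 (DESeq2), 1 (no filter) and 1 (single oocytes) at 100–109 μm, to 2 (DESeq2), 2 (no filter), 9 (single oocytes) and 2 (thinned) at 110–119 μm, and to 2 (single oocytes) at > 120 μm. The same settings called, of all genes, 7.8% and 2.66%, then 2.77%, 2.02% and 6.18%, then 11.4%, 7.33%, 37% and 7.42%, and 4.71%. Without the deepest oocyte of replicate 1 at 100–109 μm, edgeR called 0 genes instead of 70 on the step into that group (1220 at an unadjusted p below 0.05). With all 179 oocytes it called 2 genes on that step and 2 instead of 547 on the step into 110–119 μm (1298 and 2893 at an unadjusted p below 0.05). In 1 replicate alone, ABAT gave 0.57 at 100–109 μm (replicate 2) and -0.062 and 0.76 at 110–119 μm (replicates 1 and 2). In replicate 2 without the highest ABAT oocyte of a set, chosen after seeing the data, ABAT gave 0.091 on the step into 60–69 μm without that set's oocyte and 0.25 on the step into 70–79 μm likewise. Without that of 90–99 μm, the steps into 80–99 and 100–109 μm gave 0.33 and 0.66. By replicate AGMAT gave 1.32 and 0.78 at 70–79 μm, 0.93 and 0.22 at 90–99 μm and -0.22 at > 120 μm (replicate 2). The r of ABAT with diameter was 0.633 with a pseudocount of 0.1, 0.636 in all 179 oocytes, 0.607 thinned and 0.728 in replicate 1; that of AGMAT was 0.671 in all 179 oocytes and 0.617 thinned; and that of ABAT with AGMAT was 0.542 thinned. In all 179 oocytes ABAT was counted in 95.5% and AGMAT in 96.1%, and thinned AGMAT in 96.4%.

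Leaving out each sum in turn, the log2 fold change at > 120 against < 60 μm ran from 2.17 to 2.53 for ABAT and from 1.90 to 2.51 for AGMAT. For ABAT the successive steps ran from 0.55 to 0.58, 0.71 to 0.79, 0.40 to 0.87, 0.35 (without replicate 2 at 80–89 μm) to 1.22 (without replicate 1 there), 0.11 to 0.52, -0.067 to 0.80 and -0.49 to 0.41. For AGMAT they ran from 0.22 to 0.85, 0.91 to 1.24, 0.17 to 0.47, 0.28 to 0.89, 0.36 to 0.69, -0.097 to 0.12 and -0.26 to 0.35. The called pathway genes ran from 3 (without replicate 1 at > 120 μm; 4 and 5 without replicates 1 and 2 at < 60 μm) to 10 at > 120 against < 60 μm, from 0 to 4 at 110–119 μm and from 0 to 2 at 100–109 μm (both highest without replicate 2 at 100–109 μm), and were 0 in the other steps.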
